A study of Mus musculus with 112 samples.

Results

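Interferon-stimulated genes are the genes that cells switch on when an interferon binds its receptor. Their messenger RNA was followed through mammary tumours of mice from AKXD crosses. A list of 40 such genes was set, and a probe set counted as a member when its platform annotation gave 1 gene symbol and that symbol was on the list. This gave 60 probe sets for 37 genes, of 45137 probe sets in all. On the Affymetrix array MOE430A (array A) 46 probe sets measured 33 of the genes, and on MOE430B (array B) 14 measured 9, with 5 genes on both. Isg15, Ifi44 and Tgtp1 had no probe set under this rule and were not analysed here.

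All mice carried the polyoma middle T antigen (PyMT), an oncogene driven in mammary epithelium by the mouse mammary tumour virus promoter, and their tumours arose spontaneously. AKXD sublines are recombinant inbred lines that mix the genomes of AKR/J and DBA/2J mice, and the labels give the background of every animal as AKXD x PyMT. There were 56 tumours from 18 sublines, with 3 tumours in 16 sublines and 4 in sublines 2 and 25, and each tumour was hybridised to both arrays. The groups differed in subline alone as far as the labels say. There was no untreated or tumour-free group. The age of the mice is not given in the sources used here. A tumour is written below as subline and replicate, so that 18.2 is replicate 2 of subline 18.

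Type I and type III interferons signal through the kinases JAK1 and TYK2 to a complex that holds STAT2 and IRF9 and binds the interferon-stimulated response element (ISRE) in promoters. Interferon gamma signals through JAK1 and JAK2 and acts on promoters through the gamma-activated site (GAS). In tumours these genes are expressed by cancer cells as well as by infiltrating and stromal cells. The arrays read whole tumour tissue, so fewer cells of a type and less RNA per cell cannot be told apart.

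The promoters of several listed genes show the response element directly. Whether the element bears on their levels in the tumours was not tested. Windows from 250 bases before to 50 after the start were available in RefSeq (build GRCm38.p6) for 28 of the listed genes. These include Isg15, Ifi44 and Tgtp1, which had no probe set and were not followed in the tumours. The ISRE core was searched on both strands as GAAANNGAAA, a repeat of the half-site GAAA, overlapping matches included. It occurred in 16 of the 28 genes, Isg15 and Tgtp1 among them, against 3.99% of 27025 genes with a window. The GAS core, searched as TTCNNNGAA, which reads the same on both strands, occurred in 6 of the 28 genes, Tgtp1 among them, against 9.55% of all. A match to these letters is a description and not a measured binding site. The 250 bases before the start are printed for 6 members, 5 with the ISRE core and Xaf1, which has no match to either core in its window. Capitals mark the ISRE core, which reads TTTCNNTTTC where it lies on the other strand.

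Ifit1 (chr19:34640639-34640888, plus strand): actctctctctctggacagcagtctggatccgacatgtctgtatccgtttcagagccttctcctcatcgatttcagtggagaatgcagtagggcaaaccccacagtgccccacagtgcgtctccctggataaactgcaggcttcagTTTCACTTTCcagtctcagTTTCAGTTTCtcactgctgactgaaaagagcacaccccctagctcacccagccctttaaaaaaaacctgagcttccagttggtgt

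Ifit3 (chr19:34583279-34583528, plus strand): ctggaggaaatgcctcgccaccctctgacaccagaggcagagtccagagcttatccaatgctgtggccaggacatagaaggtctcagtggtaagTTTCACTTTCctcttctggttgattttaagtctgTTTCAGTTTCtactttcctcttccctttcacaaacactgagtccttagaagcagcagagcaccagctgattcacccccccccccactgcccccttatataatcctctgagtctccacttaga

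Oas1a (chr5:120907526-120907775, minus strand): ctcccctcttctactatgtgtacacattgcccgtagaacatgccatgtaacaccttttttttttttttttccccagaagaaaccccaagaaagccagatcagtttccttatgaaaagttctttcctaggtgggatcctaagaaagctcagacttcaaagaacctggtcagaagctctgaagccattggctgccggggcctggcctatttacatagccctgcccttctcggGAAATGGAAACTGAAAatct

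Rsad2 (chr12:26456453-26456702, minus strand): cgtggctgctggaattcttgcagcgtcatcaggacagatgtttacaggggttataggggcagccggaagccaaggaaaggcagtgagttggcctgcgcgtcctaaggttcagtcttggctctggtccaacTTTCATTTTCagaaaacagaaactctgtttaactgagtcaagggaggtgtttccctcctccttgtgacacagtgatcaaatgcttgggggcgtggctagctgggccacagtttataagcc

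Igtp (chr11:58199306-58199555, plus strand): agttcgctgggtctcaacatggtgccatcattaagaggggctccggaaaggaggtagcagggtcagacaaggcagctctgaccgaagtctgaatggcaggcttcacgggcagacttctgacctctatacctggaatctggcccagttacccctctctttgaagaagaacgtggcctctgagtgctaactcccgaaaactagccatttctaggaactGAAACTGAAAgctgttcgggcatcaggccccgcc

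Xaf1 (chr11:72301379-72301628, plus strand): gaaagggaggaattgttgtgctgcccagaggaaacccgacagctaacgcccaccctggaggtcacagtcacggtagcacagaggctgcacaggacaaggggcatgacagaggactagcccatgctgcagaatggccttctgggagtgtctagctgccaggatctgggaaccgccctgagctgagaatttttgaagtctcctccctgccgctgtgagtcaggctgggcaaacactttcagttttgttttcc

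The first ISRE core base lay 104 and 85 bases before the start in Ifit1, and 156 and 122 bases in Ifit3, which sit near each other on chromosome 19. In Oas1a overlapping cores began 20 and 14 bases before the start, in Rsad2 the core began 120 bases before it, and in Igtp 34 bases. Igtp also held a GAS core 45 bases before its start, and Oas1a one at 98 bases. Irf7 and Oasl2, whose levels spanned 8.69-fold and 13.4-fold between tumours, had no match to either core in their windows.

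Values are log2 expression values, so a difference of 1 is a 2-fold change. The arrays kept were 52 of array A from 17 sublines and 53 of array B from 18 sublines. The arrays left out (subline 23 and replicate 3 of subline 25 on array A, and replicate 3 of sublines 11 and 25 and replicate 2 of subline 23 on array B) had median correlations with other arrays of 0.223 to 0.948 on array A and 0.858 to 0.919 on array B, against at least 0.970 and 0.968 for the arrays kept. Markers of luminal mammary epithelium were high throughout, with Krt8 at 11.6 to 12.9 and Epcam at 12.3 to 13.3 on array A. The mean of 27 control probe sets for RNA that is absent from the sample was 4.69 to 5.05 on array A and 4.56 to 4.83 on array B, and serves as the level of an unlit probe set. The 3′ minus 5′ signal of Gapdh, a sign of RNA quality, lay between -0.278 and 0.189 (array A) or between -0.461 and 1.23 (array B).

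The interferon-stimulated genes varied widely from tumour to tumour, and most of that variation lay between tumours of the same subline. Between the lowest and the highest tumour the median member probe set of array A spanned 1.82 log2 units, or 3.54-fold, against 0.740 units, or 1.67-fold, for the median of all probe sets. A range above 2-fold was seen for 41 of 46 member probe sets and for 25.8% of all. The SD among tumours of a subline had a median of 0.374 for members and 0.147 for all probe sets, and 44 of 46 members lay above the latter. On array B, 12 of 14 members had a within-subline SD above the median of that array.

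Differences among sublines were tested with limma's moderated F test, with p values adjusted by Benjamini and Hochberg over the whole array, and the call was an adjusted p under 0.05. None of the 46 member probe sets of array A passed (0 of 46, background 1.74%), and the smallest adjusted p was 0.164, for Oas1a. With array quality weights 10 of 46 passed, where 9234 of the 22626 probe sets of the array did. At an unadjusted p under 0.05, 4 of the 46 passed, or 8.70%, against 15.2% of all probe sets. On array B 1 of 14 member probe sets passed (background 0.671%), a probe set of Xaf1, and 4 of 14 had an unadjusted p under 0.05, against 11.0% of all. The share of variance that lay between sublines (the intraclass correlation) had a median of 0.0855 for members and 0.0482 for all probe sets on array A, and of 0.152 and 0.0293 on array B.

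An interferon score was computed for each tumour as the mean, over the 33 genes of array A, of the brightest probe set's deviation from its mean over tumours. It ran over 1.82 log2 units, or 3.54-fold. Subline means ran from -0.59 ± 0.12 (SD, n = 3) in subline 14 to 0.45 ± 0.59 (SD, n = 3) in subline 7, a range of 1.03, while the SD within sublines was 0.409. The intraclass correlation of the score was 0.0991. Tumours of 11 sublines lay on both sides of 0, those of 3 sublines all above it and those of 3 all below it.

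**Figure D1:**
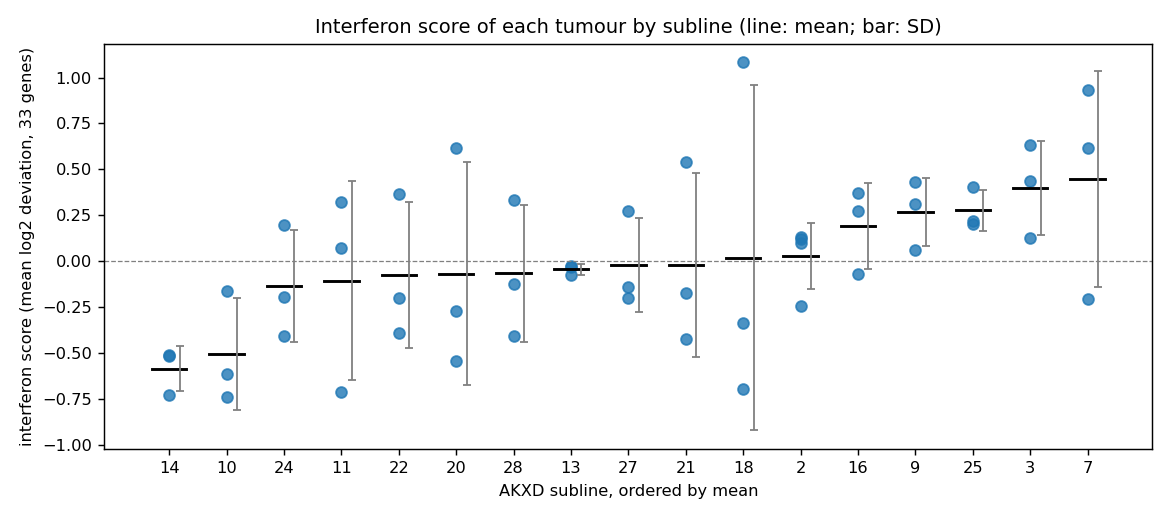
Interferon score (mean log2 deviation over 33 genes, array A) of each of 52 tumours, by subline, ordered by subline mean; dots are tumours, lines are means and bars are SDs. Subline 18 alone runs from -0.69 to 1.08, most of the whole range, and the 3 tumours of subline 14 lie between -0.73 and -0.51.

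Subline 14 held the lowest set of tumours, with scores of -0.73, -0.52 and -0.51. Subline 10 read -0.74, -0.62 and -0.16. At the other end, subline 7 read 0.93, 0.62 and -0.21, and subline 3 read 0.43, 0.13 and 0.63. The tumours of subline 14 did not overlap those of subline 7 or 3, whereas tumour 7.3 lay below the third tumour of subline 10. These sublines were picked by their means from the same values, as were the extremes of single genes below. A lack of overlap between them is therefore a description and no test. Within subline 18 the scores were -0.34, 1.08 and -0.69. Subline 20 read -0.27, -0.55 and 0.61, and subline 11 read -0.71, 0.07 and 0.32.

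Tumour 18.2 had the highest level of 23 of the 33 genes and lay above the mean over tumours for all 33. Another tumour of the same subline, 18.3, lay below the mean for all 33 genes. Tumours 3.3, 7.1, 7.2, 9.1 and 20.3 also lay above the mean for all 33 genes, and tumours 10.1, 11.1, 14.2 and 20.2 below it for all 33. The lowest level was found most often in tumour 14.1 (8 genes), tumour 10.1 (7 genes) and tumour 18.3 (6 genes).

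**Figure D2:**
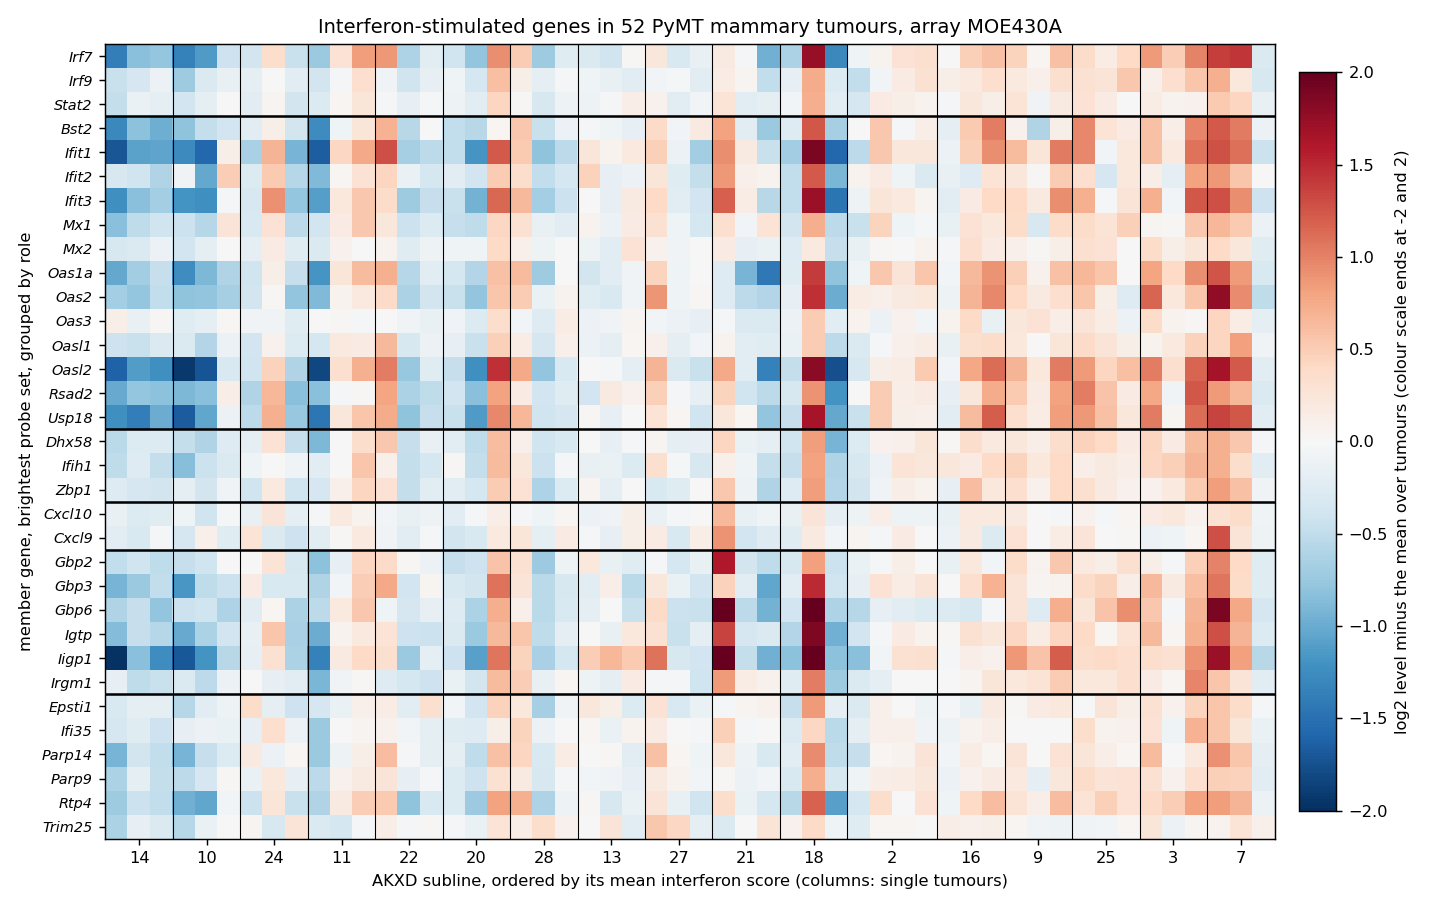
Each member gene of array A (brightest probe set, rows grouped by role) in each of 52 tumours (columns, grouped by subline and ordered by its mean score), as the log2 level minus the gene's mean over tumours. Columns are mostly of a single colour from top to bottom: tumours 3.3, 7.1, 7.2, 9.1, 18.2 and 20.3 are above the mean in all 33 genes. Tumours 10.1, 11.1, 14.2, 18.3 and 20.2 are below it in all 33.

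Each subline was also set against the mean of the others. In subline 14, 45 of 46 member probe sets of array A were lower, with a median difference of -0.44, or 0.735-fold, where the median of all probe sets was 0.00315. It held the lowest subline mean for 32 of the 46. In subline 10, 44 of 46 were lower, with a median of -0.34. In subline 7, 45 of 46 were higher, with a median of 0.43, and 45 of 46 were higher in sublines 3 (median 0.31) and 25 (0.24). These comparisons share the other sublines' tumours with each other.

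No member probe set of array A passed the test in any of these comparisons with limma. In subline 14 the call was made for 0 of 46 (background 0.00884% higher and 0.0133% lower), the smallest adjusted p was 0.316, for Bst2, and 26 of 46 had an unadjusted p under 0.05, against 7.20% of all probe sets. In subline 10 it was made for 0 of 46 (background 0.0309% higher and 0.0221% lower), with 17 unadjusted, against 5.11% of all. In subline 7 it was made for 0 of 46 (background 0% in both directions), with 14 unadjusted, against 4.68% of all. In subline 3 it was made for 0 of 46 (background 0.0354% higher and 0.00442% lower), with 12 unadjusted, against 5.55% of all. Sublines 14, 10, 7 and 3 were picked as extremes of a score built from these same members, and the members move together. Their unadjusted counts are therefore descriptions and no test. The other sublines also had 0 of 46 called, and the most unadjusted was 3 of 46, in subline 25, against 5.70% of all. There the background share of all probe sets called was 2.41% higher and 0.99% lower in subline 21, 0.959% higher and 2.56% lower in subline 22, 0.0663% higher and 0.331% lower in subline 28, and 0.212% higher and 0.0796% lower in subline 16. It was 0.0221% higher and 0.0265% lower in subline 18, 0.00442% higher and 0.00442% lower in subline 24, 0.00442% lower in subline 9, 0.00442% higher in subline 25 and 0.00884% higher in subline 27. In sublines 2, 11, 13 and 20 it was 0% in both directions. On array B 13 of 14 member probe sets were lower in subline 14 and 12 of 14 in subline 11, none of them past the adjusted threshold. The background of array B was 0% lower in subline 14 and 0.231% lower in subline 11. Among the sublines with no member call it was highest in subline 23, at 1.19% higher and 2.47% lower, and apart from sublines 11 and 23 it was at most 0.0267% in either direction, with 0.00888% higher in sublines 10, 24 and 27 and 0.00444% higher in sublines 13 and 18.

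The transcription factors of the response were led by Irf7, which drives further interferon production. Irf7 read 8.39, 8.93 and 9.00 in subline 14, 8.42, 8.64 and 9.36 in subline 10, 9.95, 9.76 and 8.81 in subline 21, and 9.49, 9.38 and 9.79 in subline 13. It read 9.40, 10.12 and 9.32 in subline 24, 10.28, 9.06 and 9.54 in subline 28, 9.38, 8.99 and 10.71 in subline 20, and 10.00, 9.47 and 9.63 in subline 27. Tumours 14.1, 10.1, 18.3 and 10.2 were the lowest of the series, and subline 18 comes later in this order through its tumour 18.2. Higher up, Irf7 read 9.14, 11.51 and 8.49 in subline 18, 10.63, 9.16 and 9.56 in subline 22, 9.02, 10.06 and 10.60 in subline 11, and 9.68, 9.85, 10.06 and 10.10 in subline 2. In the remaining sublines it read 10.14, 9.92 and 10.18 in subline 25, 10.21, 9.81 and 10.36 in subline 9, 9.79, 10.25 and 10.36 in subline 16, 10.62, 10.27 and 10.77 in subline 3, and 11.15, 11.21 and 9.48 in subline 7. The highest tumour, 18.2, stood 8.69-fold above the lowest, 14.1, and the subline means ran over 3.58-fold, from 8.78 ± 0.34 (SD, n = 3) in subline 14 to 10.61 ± 0.98 (SD, n = 3) in subline 7. The 3 tumours of subline 14 lay below all 3 of subline 7, but across sublines the F test did not pass (adjusted p 0.331, limma). Stat2 and Irf9, the partners in the ISRE-binding complex, moved over smaller ranges, Stat2 from 7.31 to 8.51 (2.30-fold) and Irf9 from 8.10 to 9.57 (2.76-fold), and both were highest in tumour 18.2.

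The antiviral effectors spanned a median of 5.71-fold between lowest and highest tumour over 15 probe sets of 13 genes, second to the GTPases described further on. Oasl2, an oligoadenylate-synthetase-like protein, read 6.48, 6.70 and 8.11 in subline 10, 6.80, 7.30 and 7.19 in subline 14, 9.18, 8.20 and 7.07 in subline 21, and 6.59, 8.74 and 9.13 in subline 11. It read 8.02, 8.88 and 7.82 in subline 24, 7.94, 10.23 and 6.66 in subline 18, 9.18, 7.64 and 8.11 in subline 28, and 8.42, 8.37 and 8.24 in subline 13. Sublines 10, 11 and 18 each held a tumour below 7 and another above 8. Further up, Oasl2 read 7.95, 7.20 and 9.88 in subline 20, 9.09, 8.13 and 7.98 in subline 27, 9.44, 7.65 and 8.18 in subline 22, and 8.10, 8.53, 8.57 and 8.93 in subline 2. In sublines with higher means Oasl2 read 8.37, 9.18 and 9.54 in subline 16, 9.27, 8.85 and 9.01 in subline 25, 9.09, 8.63 and 9.45 in subline 9, 9.44, 8.75 and 9.59 in subline 3, and 10.08, 9.64 and 8.19 in subline 7. Its tumours spanned 13.4-fold and its subline means 4.61-fold, with no call among sublines (adjusted p 0.386, limma).

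Ifit1, which binds foreign RNA that lacks the host's cap methylation, read 7.42, 8.06 and 8.07 in subline 14, 7.85, 7.56 and 9.25 in subline 10, 8.48, 9.81 and 8.20 in subline 24, and 9.65, 8.33 and 8.60 in subline 28. It read 7.49, 9.54 and 9.88 in subline 11, 8.64, 7.94 and 10.35 in subline 20, 8.44, 11.01 and 7.56 in subline 18, and 9.61, 9.01 and 8.43 in subline 27. Tumour 10.3 stood at 9.25, well above 7.85 and 7.56 in the other tumours of its subline. In the next sublines Ifit1 read 10.42, 8.46 and 8.61 in subline 22, 8.60, 9.66, 9.36 and 9.36 in subline 2, 9.37, 9.20 and 9.32 in subline 13, and 10.06, 9.31 and 8.68 in subline 21. Its highest subline means came from 10.08, 9.08 and 9.35 in subline 25, 9.01, 9.61 and 10.05 in subline 16, 9.71, 9.32 and 10.22 in subline 3, 9.77, 9.37 and 10.17 in subline 9, and 10.41, 10.23 and 8.71 in subline 7. The span over tumours was 12.1-fold, and the subline means were 7.85 ± 0.37 (subline 14, lowest) and 9.78 ± 0.94 (subline 7, highest, SD, n = 3). The tumours of those sublines, picked as the extremes in mean, did not overlap, but the F test did not pass (adjusted p 0.642, limma).

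Ifit3, a binding partner of Ifit1, read 7.28, 7.68 and 7.83 in subline 14, 7.31, 7.29 and 8.50 in subline 10, 8.88, 7.80 and 8.05 in subline 22, and 9.17, 7.84 and 8.09 in subline 28. It read 7.41, 8.73 and 9.05 in subline 11, 8.02, 10.24 and 7.06 in subline 18, 8.07, 7.57 and 9.67 in subline 20, and 8.91, 8.29 and 8.14 in subline 27. Tumour 18.3, at 7.06, was the lowest of the series for Ifit3, and tumour 18.2, at 10.24, the highest. Further up, Ifit3 read 8.19, 9.43 and 7.75 in subline 24, 8.52, 8.36 and 8.70 in subline 13, 8.41, 8.76, 8.71 and 8.57 in subline 2, and 8.29, 8.69 and 8.92 in subline 16. The upper sublines read 9.71, 8.66 and 7.97 in subline 21, 9.23, 8.49 and 8.78 in subline 25, 8.91, 8.70 and 9.44 in subline 9, 9.81, 9.45 and 8.10 in subline 7, and 9.22, 8.46 and 9.76 in subline 3. The span between tumours 18.2 and 18.3 was 9.08-fold, larger than the 2.93-fold between the highest and lowest subline means. Ifit2, of the same family, ran from 5.81 to 8.07.

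Usp18, the protease that removes ISG15 from proteins and restrains the interferon receptor, read 6.99, 6.84 and 7.22 in subline 14, 6.55, 7.17 and 8.09 in subline 10, 6.77, 8.44 and 8.77 in subline 11, and 7.76, 7.07 and 9.18 in subline 20. It read 7.69, 8.92 and 7.46 in subline 24, 8.44, 8.25 and 7.42 in subline 21, 8.96, 7.41 and 7.75 in subline 22, and 8.23, 8.05 and 8.21 in subline 13. Of the 8 lowest tumours for Usp18, 3 were those of subline 14. Higher up, Usp18 read 8.87, 7.81 and 7.88 in subline 28, 8.49, 8.26 and 7.81 in subline 27, 7.75, 9.87 and 7.19 in subline 18, and 7.77, 8.72, 8.33 and 8.32 in subline 2. Usp18 in the upper sublines read 8.54, 8.36 and 9.05 in subline 9, 7.98, 8.85 and 9.43 in subline 16, 9.08, 8.79 and 8.44 in subline 25, 9.25, 8.26 and 9.33 in subline 3, and 9.56, 9.45 and 7.99 in subline 7. Its tumours spanned 9.99-fold and its subline means 3.96-fold, and the F test did not pass (adjusted p 0.380, limma).

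Bst2, tetherin, which holds budding virus at the cell surface, read 7.15, 7.62 and 7.46 in subline 14, 7.63, 7.95 and 8.05 in subline 10, 7.17, 8.35 and 8.68 in subline 11, and 7.95, 7.88 and 8.48 in subline 20. It read 8.22, 8.55 and 8.07 in subline 24, 8.52, 7.83 and 8.56 in subline 9, 8.39, 8.35 and 8.27 in subline 13, and 9.25, 8.21 and 7.70 in subline 21. Subline 14 was the lowest in mean, and tumour 11.1, at 7.17, was the only tumour of another subline that reached down into its range. Further up, Bst2 read 8.97, 7.99 and 8.32 in subline 28, 9.14, 7.88 and 8.43 in subline 22, 8.18, 9.67 and 7.77 in subline 18, and 8.44, 8.97, 8.39 and 8.57 in subline 2. Bst2 in the upper sublines read 8.81, 8.38 and 8.61 in subline 27, 8.25, 8.97 and 9.46 in subline 16, 9.39, 8.71 and 8.61 in subline 25, 9.02, 8.57 and 9.42 in subline 3, and 9.66, 9.47 and 8.32 in subline 7. Subline 14 differed from the mean of the others by -1.08 ± 0.30 (SE, limma), and this did not pass (adjusted p 0.316). Among sublines the adjusted p was 0.213.

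Oas1a, an oligoadenylate synthetase that activates RNase L, read 8.67, 9.02 and 9.31 in subline 10, 9.66, 8.98 and 8.49 in subline 21, 8.89, 9.21 and 9.45 in subline 14, and 9.51, 10.03 and 9.46 in subline 24. It read 9.55, 9.69 and 9.85 in subline 13, 9.56, 9.33 and 10.50 in subline 20, 8.74, 10.16 and 10.54 in subline 11, and 10.63, 9.34 and 9.70 in subline 22. Subline 21, whose mean score was -0.02, was second lowest here, and its difference from the others had an adjusted p of 0.0959 (limma), the smallest of any member and subline on array A. Further up, Oas1a read 10.55, 9.20 and 9.93 in subline 28, 10.36, 9.83 and 9.90 in subline 27, 9.68, 11.31 and 9.11 in subline 18, and 9.83, 10.46, 10.17 and 10.47 in subline 2. Oas1a in the upper sublines read 10.39, 10.00 and 10.50 in subline 9, 10.58, 10.47 and 9.92 in subline 25, 9.86, 10.56 and 10.82 in subline 16, 11.17, 10.76 and 9.61 in subline 7, and 10.71, 10.31 and 10.84 in subline 3. Its tumours spanned 7.09-fold, and the lowest and highest subline means were 9.00 ± 0.32 (subline 10) and 10.62 ± 0.28 (subline 3, SD, n = 3), whose tumours did not overlap. Oas2 spanned 6.78-fold and Oas3, of the same family, 1.73-fold. Oasl1 spanned 2.66-fold.

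Rsad2, viperin, which makes a chain-terminating nucleotide, read 8.28, 8.51 and 8.46 in subline 14, 8.38, 8.45 and 9.42 in subline 10, 8.45, 9.26 and 9.31 in subline 11, and 8.68, 9.94 and 8.45 in subline 24. It read 8.97, 10.18 and 8.10 in subline 18, 9.74, 8.89 and 8.77 in subline 21, 9.46, 8.90 and 9.04 in subline 28, and 8.90, 8.46 and 10.08 in subline 20. The 3 tumours of subline 14 lay between 8.28 and 8.51. Further up, Rsad2 read 10.07, 8.65 and 8.78 in subline 22, 8.90, 9.47 and 9.37 in subline 13, 9.77, 9.24 and 9.12 in subline 27, and 9.28, 9.79, 9.42 and 9.45 in subline 2. Rsad2 in the upper sublines read 9.12, 9.51 and 10.02 in subline 16, 10.13, 9.95 and 8.99 in subline 7, 9.81, 9.45 and 10.10 in subline 9, 10.31, 9.86 and 9.45 in subline 25, and 10.06, 9.22 and 10.53 in subline 3. The highest tumour here was 3.3 and not 18.2, and the span was 5.39-fold. The dynamin-like Mx1 and Mx2 spanned 2.94-fold and 1.82-fold.

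The interferon-inducible GTPases, which coat and disrupt the vacuoles of intracellular pathogens, spanned a median of 6.81-fold over 8 probe sets of 6 genes on array A. Iigp1 read 7.20, 8.33 and 7.93 in subline 14, 7.48, 7.97 and 8.61 in subline 10, 7.81, 9.34 and 9.56 in subline 11, and 9.49, 8.43 and 8.98 in subline 22. It read 9.61, 8.51 and 8.81 in subline 28, 9.01, 9.48 and 8.53 in subline 24, 8.75, 8.08 and 10.24 in subline 20, and 8.33, 9.11, 9.48 and 9.49 in subline 2. Tumour 14.1 was the lowest, and tumours 10.1 and 11.1 followed. Further up, Iigp1 read 9.12, 9.29 and 9.26 in subline 16, 10.26, 8.84 and 8.79 in subline 27, 8.35, 11.29 and 8.34 in subline 18, and 11.22, 8.70 and 8.21 in subline 21. Iigp1 in the upper sublines read 9.53, 9.55 and 9.50 in subline 25, 9.52, 9.46 and 10.06 in subline 3, 9.65, 9.84 and 9.68 in subline 13, 10.89, 9.99 and 8.61 in subline 7, and 10.03, 9.74 and 10.38 in subline 9. Its span of 17.05-fold was the widest of the 60 member probe sets, and the tumours of sublines 14 and 9, lowest and highest in mean, did not overlap. The F test did not pass (adjusted p 0.437, limma).

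Tumours 18.2 and 21.1 led the GTPases. Iigp1 read 11.29 in tumour 18.2 and 11.22 in tumour 21.1. Gbp2 ran from 7.66 to 10.09 and was highest in tumour 21.1, as was Gbp6 on array B, which ran from 6.47 to 9.71. Gbp3 (6.24 to 8.90), Igtp (8.48 to 11.35) and Irgm1 (8.46 to 10.40) were highest in tumour 18.2. Gbp6 on array A ran from 4.74 to 8.26, so that its lowest tumours lay at the level of the absent controls.

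In tumour 21.1, 28 of 33 genes lay above their mean, and the GTPase score was the highest of its scores by role. Its GTPase score was 1.44, near the 1.65 of tumour 18.2, while its effector score was 0.403 against 1.17. The GTPase score minus the effector score was 1.03 in tumour 21.1, with 0.480 as the next highest and a median of -0.0186 over the 52 tumours. Cxcl10 was highest there and Gbp2 too, and Ifit2 read 7.70. Oas1a, low throughout this subline at 9.66, 8.98 and 8.49, lay below its median of 9.88. Irf1, a factor that interferon gamma induces strongly, read 10.95 in tumour 21.1, 9.99 in 21.2 and 10.14 in 21.3, against 9.94 to 10.44 in the tumours of other sublines. The score for natural killer cell markers was 0.333 in tumour 21.1 and that for T cell markers -0.0721, and their part in the pattern was not tested. It rests on 1 tumour and has no replicate.

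The nucleic acid sensors, which detect foreign RNA or DNA, moved over smaller ranges. Ifih1 (MDA5) ran from 8.58 to 10.24, Dhx58 (LGP2) from 7.13 to 8.90 and Zbp1 from 8.05 to 9.50. Ddx58 (RIG-I), measured on array B alone, ran from 9.19 to 10.67. Ifih1 had its highest mean in subline 3, at 9.96 ± 0.14 (SD, n = 3), and its lowest in subline 10, at 8.91 ± 0.29 (SD, n = 3). The adjusted p among sublines was 0.254.

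The chemokines Cxcl9 and Cxcl10, which draw T cells through the receptor CXCR3, were dim and moved over small ranges. Cxcl10 ran from 6.79 to 7.85 (2.08-fold) and Cxcl9 from 6.29 to 7.997 (3.26-fold), with tumour 7.1 highest for Cxcl9. The array B probe set of Cxcl9 ran from 4.48 to 5.02, the level of the absent controls.

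The remaining members have varied roles. Ly6e, a small surface protein, ran from 12.1 to 13.4 on array B, Rtp4 from 9.41 to 11.68, and Ifi35 from 8.62 to 10.06 on array A. The ADP-ribosyltransferase family members Parp9 and Parp14 ran from 9.53 to 10.88 and from 7.50 to 9.38. Epsti1 ran from 8.23 to 9.74 and Samd9l, an inhibitor of cell growth, from 7.54 to 9.81 on array B. Trim25, the ubiquitin ligase that activates RIG-I, ran from 9.39 to 10.57 and was highest in tumour 27.1, not in the tumours that led the other members.

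Xaf1, which blocks the apoptosis inhibitor XIAP, was the only member called among sublines, by 1 of its 2 probe sets, both on array B. The 2 probe sets did not follow each other (Pearson r -0.181 over 53 tumours), so the call is for a probe set and not for the gene's level. The first probe set read 7.64, 7.65 and 7.83 in subline 22, 7.74, 7.87 and 7.73 in subline 18, 7.74, 7.99 and 7.73 in subline 16, and 7.99, 7.61, 7.90 and 7.88 in subline 2. It read 8.06, 7.67 and 7.83 in subline 14, 7.87, 7.72 and 8.04 in subline 9, 7.92 and 7.87 in subline 23, and 7.93, 8.13 and 7.91 in subline 7. None of these tumours exceeded 8.13. The next sublines read 8.73 and 8.94 in subline 11, 9.45, 8.02 and 9.29 in subline 24, 9.86, 9.17 and 7.91 in subline 27, and 9.01, 9.13 and 9.31 in subline 10. The highest read 10.11, 8.78 and 9.24 in subline 28, 9.32, 8.82 and 10.24 in subline 20, 9.97, 9.57 and 9.68 in subline 13, 10.73, 9.83 and 8.79 in subline 21, 10.14, 9.91 and 9.69 in subline 25, and 10.11, 9.74 and 10.74 in subline 3. No tumour read between 8.13 and 8.73, a gap of 0.603, with 26 tumours below it and 27 above. All tumours of 8 sublines lay below the gap and all of 8 others above it, and sublines 24 and 27 had tumours on both sides. Below the gap the tumours spanned 1.43-fold, and above it 4.02-fold.

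The F test among sublines gave an adjusted p of 1.20e-06 for this probe set (limma), with an intraclass correlation of 0.756 and a lowest subline mean of 7.71 ± 0.11 (subline 22) and a highest of 10.20 ± 0.51 (subline 3, SD, n = 3), 5.63-fold apart. Against the mean of the others, this probe set was higher by 1.55 ± 0.27 (SE) in subline 3 (adjusted p 0.0113, limma, background 0.0178%). In subline 21 it was higher by 1.12 ± 0.27 (adjusted p 0.0318, limma, background 0.715%). The other Xaf1 probe set differed by 0.07 ± 0.23 (SE) in subline 3 (adjusted p 0.959, limma) and by 0.02 ± 0.23 in subline 21 (adjusted p 0.974). Neither single-subline call held when a replicate number was left out, apart from subline 21 without replicate 3, and the adjusted p values were 0.146 to 0.595 for subline 3. Among sublines the call held in each of those fits.

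The other Xaf1 probe set had no such gap. It ran from 7.69 to 9.81 with a median of 8.62, and its widest step between neighbouring tumours was 0.262. Among sublines its adjusted p was 0.224. In subline 18 it read 8.51, 9.81 and 8.14, following the interferon scores of -0.34, 1.08 and -0.69, while the first probe set read 7.74, 7.87 and 7.73. In subline 20, above the gap, the first probe set read 9.32, 8.82 and 10.24 beside scores of -0.27, -0.55 and 0.61. The 2 probe sets have different affinities, so the size of their difference has no meaning by itself. Its spread over tumours does, and the first minus the other lay between 0.63 and 1.74 in the 27 tumours above the gap and between -1.94 and -0.42 in the 26 below it. Xaf1 lies on chromosome 11, where 13 member probe sets of 6 genes were measured, and no other of the 13 passed the test among sublines.

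**Figure D3:**
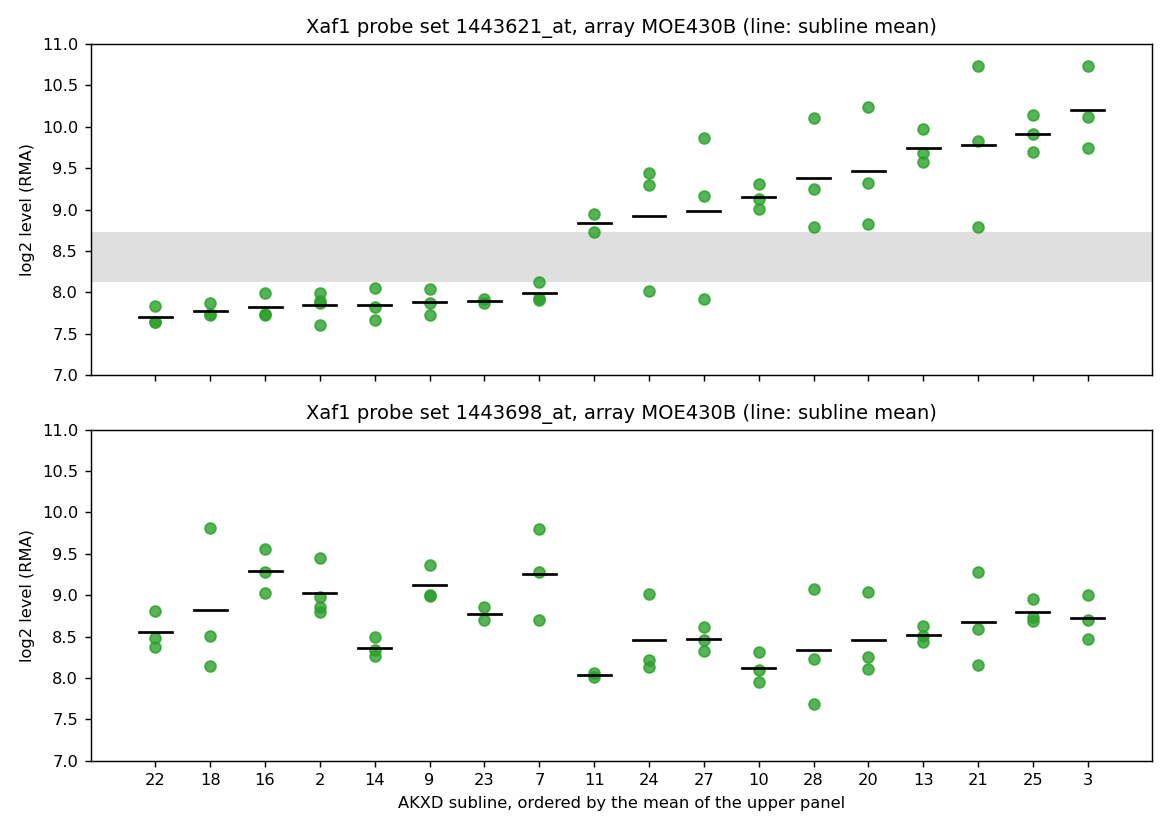
Log2 level of the 2 Xaf1 probe sets in 53 tumours of array B by subline, ordered by the mean of the upper panel; dots are tumours, lines are subline means, and the grey band marks the gap from 8.13 to 8.73. In the upper panel 8 sublines lie wholly below the band and 8 wholly above it, and in the lower panel tumours run from 7.69 to 9.81 without a break of that size.

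The members rose and fell together across tumours. Over the 52 tumours of array A the 528 pairs of 33 genes had a median Pearson r of 0.781, against -0.00575 for all pairs of probe sets, and 69.5% of the pairs exceeded 0.7, against 0.243%. After the subline means were subtracted the median was 0.798 and 70.3% of pairs exceeded 0.7, against 0.462%. The tumours share their arrays' normalization, and these values are descriptions. Oasl2, Irf7 and Usp18 had the highest median r with the other members, at 0.882, 0.869 and 0.854. Trim25 had the lowest, at 0.364, followed by Cxcl9 at 0.527 and Oas3 at 0.601. Effectors correlated with other effectors at a median of 0.838 and with the chemokines at 0.565. Pairs of probe sets for the same gene, 31 pairs of 16 genes, had a median r of 0.736, from -0.217 to 0.979.

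Irf7 served as the reference for how steeply each member moved. Every probe set was regressed on the Irf7 level of the same tumour with the subline means in the model, so that differences between sublines did not enter. Irf7 is itself a member and this comparison was chosen after the correlations were seen. The slopes therefore restate those correlations, and their p values are no separate test of Irf7. On array A 39 of the other 45 member probe sets had a positive slope that passed (limma, background 0.601%) and 0 had a negative one (background 0.0133%). On array B 6 of 14 passed (background 0.0888%). Without the 2 tumours farthest from the median Irf7 level, 18.2 and 7.2, 36 of 45 passed on array A and 5 of 14 on array B. Cxcl10, Oas3, a probe set of Epsti1 and, on array B, Ifi35 were those that no longer passed. On array B the count was 3 without replicate 2 and 0 without replicate 3.

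Slopes are in log2 units of the gene per log2 unit of Irf7. The effectors held the 2 steepest, and 4 of them exceeded 1: Oasl2 at 1.28 ± 0.07, Ifit1 at 1.25 ± 0.07, Ifit3 at 1.07 ± 0.06 and Usp18 at 1.03 ± 0.07 (SE, n = 52), with adjusted p values from 2.62e-17 to 9.16e-14. Among effectors 15 of 15 probe sets passed, down to Oas3 at 0.19 ± 0.04. Among GTPases 8 of 8 passed, led by Iigp1 at 1.11 ± 0.10. The transcription factors passed in 3 of 3, with slopes of 0.32 ± 0.03 to 0.43 ± 0.05, and the sensors in 5 of 6.

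Cxcl10 passed at 0.16 ± 0.04 (adjusted p 0.0258, limma) and Cxcl9 did not, at 0.23 ± 0.07 (adjusted p 0.203). None of the 3 Trim25 probe sets passed, with slopes of 0.09 to 0.17. Of 3 Dhx58 probe sets on array A, 1 did not pass, with a slope of 0.01, nor did 1 of 3 for Epsti1, at -0.01. The Epsti1 probe set on array B, also at -0.01, did not pass either. On array B the Ddx58 probe sets (3 of 3), Samd9l, a probe set of Ifi35 and the second Xaf1 probe set passed. The second Xaf1 probe set had a slope of 0.54 ± 0.06 (adjusted p 1.88e-07) and the first, with the gap, 0.27 ± 0.12 (adjusted p 0.601). Neither Ly6e probe set passed.

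**Figure D4:**
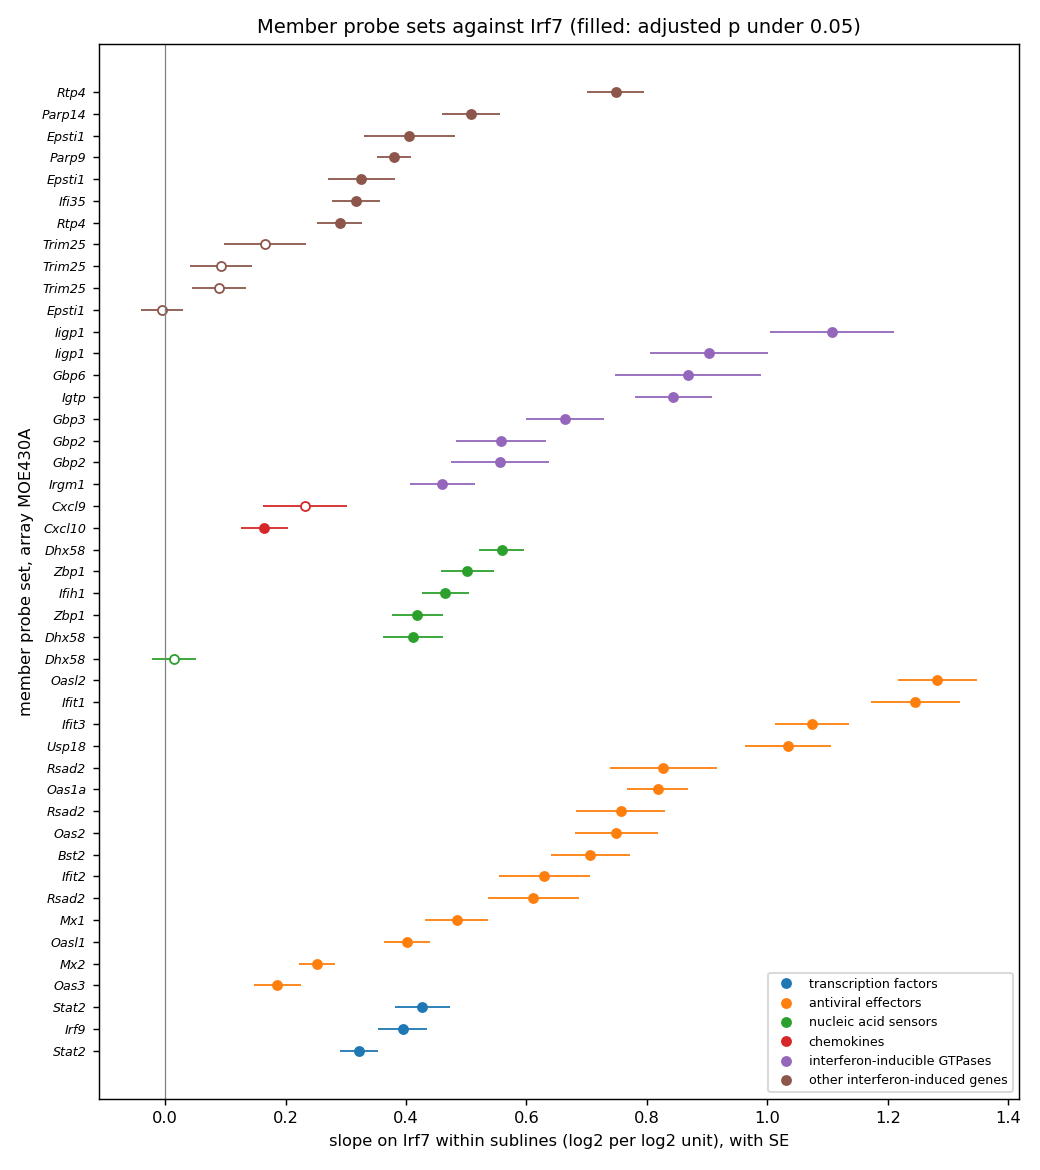
Slope of each member probe set of array A on the Irf7 level within sublines (log2 per log2 unit, n = 52 tumours) with its SE, coloured by role; filled dots have an adjusted p under 0.05. The effectors Oasl2 (1.28) and Ifit1 (1.25) are at the right, and the 3 Trim25 probe sets and Cxcl9 are open.

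**Figure D5:**
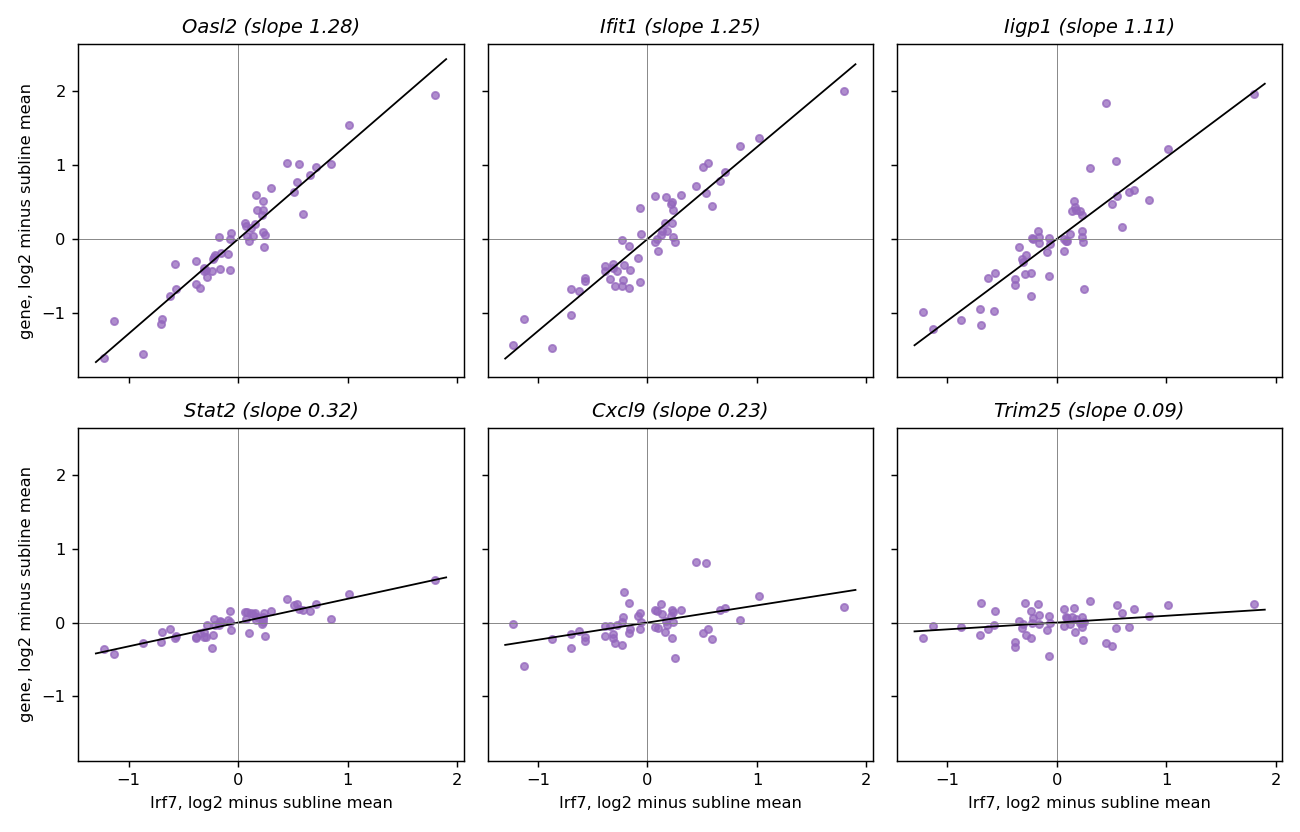
Deviation of 6 genes from their subline mean against that of Irf7, in log2 units, for 52 tumours; each dot is a tumour and each line has the fitted slope. The fitted slopes of Oasl2 (1.28), Ifit1 (1.25) and Iigp1 (1.11) are above 1, that of Stat2 is lower (0.32), and Cxcl9 and Trim25 scatter about shallow lines. No slope was tested against 1.

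The 136 probe sets of array A with a positive slope included genes outside the list that are also known to respond to interferon. The leading ones were the helicase Ddx60 (slope 0.93), the GTPase Irgm2 (0.74), Parp12 (0.62), Lgals3bp (0.71) and the nucleotide kinase Cmpk2 (0.47). Tap1, the antigen peptide transporter, had a slope of 0.46, and B2m, the light chain of class I molecules, 0.49. On array B Phf11d (0.51) and Herc6 (0.54) led them. Apart from Tap1 and B2m, which were chosen after their values were seen, these genes were named by their rank.

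Of 13 lists of cell type markers, none had a probe set that passed in the regression on Irf7 on array A. They held 14 probe sets for T cells, 14 for macrophages and 11 for plasmacytoid dendritic cells, among others. Over all probe sets 0.601% passed with a positive slope and 0.0133% with a negative one. At that share lists this short would hold few calls or none. The median slope was -0.016 for T cell, 0.092 for macrophage and -0.93 for skeletal muscle markers (6 probe sets). The T cell marker score (9 of 12 genes measured) ran from -0.226 to 0.333 over tumours and the macrophage score (10 of 10 genes) from -0.802 to 0.709. Within sublines 1 of 46 member probe sets had a positive slope on the T cell score that passed (background 16.4%), and 9 of 46 slopes were above 0. On the macrophage score 1 of 46 passed (background 5.35%), and 38 of 46 slopes were above 0. Cxcl9 was the member that passed on both scores, and on the macrophage score it did not pass without the 2 tumours farthest from the median. In tumour 18.2 the T cell and macrophage scores were -0.126 and -0.0854. In tumour 7.1 they were 0.102 and 0.709, the latter the highest of the series, and its part in that tumour's levels was not tested. In subline 14 the macrophage score ran from -0.454 to 0.063 and in subline 10 from -0.599 to 0.366.

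No gene of the lists for the rest of the pathway passed the test among sublines. Of 61 probe sets for 36 genes of interferon ligands, receptors, kinases and factors, inducing sensors and negative regulators on array A, 0 passed among sublines, against 1.74% of all probe sets, and 9 had an unadjusted p under 0.05, against 15.2% of all. On array B it was 0 of 11, against 0.671%, with 4 unadjusted, against 11.0%. The smallest adjusted p values were 0.0889 for the phosphatase Ptpn11, 0.0930 for the feedback inhibitor Socs3 and 0.0998 for the adaptor Sting1 on array B. None of these probe sets passed in the regression on Irf7 within sublines. The background was 0.601% positive and 0.0133% negative on array A, and 0.0888% and 0% on array B. Nlrc5, the activator of class I genes, came closest (slope 0.46 on array B, adjusted p 0.0690, limma). The ligand Ifnb1 ran from 6.19 to 6.79 and Ifng from 5.04 to 5.58 over the tumours.

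Single sublines differed from the others in 3 pathway genes. Sting1, the adaptor that carries the signal of cytosolic DNA, read 10.82, 10.04 and 9.95 in subline 21 on array A, against 9.42 to 10.19 elsewhere, a difference of 0.39 ± 0.11 (SE, adjusted p 0.0315, limma, background 2.41%). On array B it read 9.78, 8.23 and 8.37 there, a difference of 0.87 ± 0.20 (adjusted p 0.0194). Tumour 21.1 stood apart in both, and without replicate 1 the differences were 0.11 (adjusted p 0.611) and 0.41 (adjusted p 0.514). In subline 11 Sting1 read 7.01 and 6.84 on array B, a difference of -1.11 ± 0.24 (adjusted p 0.0324, limma, background 0.231%). It did not pass without replicate 3 (adjusted p 0.0631, limma), a fit that takes no tumour from subline 11 on array B. The fits without replicate 1 or 2 leave 1 tumour there, and the difference ran from -1.145 to -1.039 over these fits. On array A the tumours of subline 11 read 9.42, 9.80 and 9.86, against a median of 9.90 over all tumours, with no call.

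The interferon gamma receptor chain Ifngr1 read 10.00, 9.92 and 9.59 in subline 22, against 9.14 to 9.88 elsewhere, a difference of 0.33 ± 0.10 (SE, adjusted p 0.0484, limma, background 0.959%). It did not pass without replicate 1 (adjusted p 0.432) or replicate 2 (adjusted p 0.285). The DNA sensor Cgas read 8.46 and 8.09 by 1 probe set and 8.42 and 7.62 by the other in the 2 kept tumours of subline 23 on array B, against upper limits of 8.15 and 7.94 elsewhere. The differences were 0.28 ± 0.06 (adjusted p 0.00581, background 1.19%) and 0.33 ± 0.09 (adjusted p 0.0372, limma). Tumour 23.1 alone was high by both, and without replicate 1 neither passed.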

How the data were processed

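RNA of 56 mammary tumours was hybridised to MOE430A and MOE430B arrays. The authors deposited log2 expression values made by RMA, per the submitters' processing notes; the version is not given in the sources used here. RMA gives all arrays the same distribution of probe values and leaves each probe set its own affinity, so levels of different probe sets were not compared. Gene symbols came from the platform annotation, updated through the RefSeq gene table (GRCm38.p6). On each array 64 control probe sets were set aside, and 0 columns belonged to other series. The members and lists were chosen with earlier results of these data known.

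From these values limma 3.58.1 in R 4.3.3 tested differences among sublines (moderated F) and each subline against the unweighted mean of the others, with 35 residual degrees of freedom on each array and Benjamini-Hochberg adjustment over all probe sets of an array. The regressions on Irf7 and on marker scores kept subline means in the model. Scores and correlations were computed in Python 3.11.15. Tumours are numbered as biological replicates in the labels, which do not say whether animals were littermates. P values measure the spread between these tumours, and the number of arrays limits precision. The fits were tested on simulated data.

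Values by tumour are given for Xaf1 and the members with the widest range of subline means, the others by range and count. Alternatives were a replicate block, all arrays, quantile normalization, median centring, a filter on dim probe sets, array quality weights, a trended robust prior and leaving out each replicate number. In the regression on Irf7, the level of Usp18 or Irf9 was also put in its place.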

Additional observations from a re-analysis of the deposited data

Results flagged for a closer look

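In subline 2, which has 4 tumours on array A and array B, 6 of 61 values tested had 1 tumour far from the other 3. Chance flags about 1 in 20 groups. The Cxcl10 level was 7.32 in replicate 2, where the nearest other tumour read 7.10. Rsad2, by a second probe set, read 8.15 in replicate 2 against 7.62 in the nearest. In replicate 1 Trim25 read 9.78 against 10.03, and Ddx58 read 9.76 against 10.05, both the lowest of the subline. The interferon score was also lowest in replicate 1, at -0.24 against 0.10 in the nearest tumour. On array B, Epsti1 read 5.77 in replicate 2, where the nearest tumour read 5.99.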

How the results depend on the processing

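The Xaf1 call among sublines held in each alternative. Array quality weights gave 10 member probe sets among sublines on array A and 7 on array B, 7 and 11 in single sublines, and 25 and 4 pathway probe sets among sublines. With all arrays, 15 (array A) and 7 (array B) were called in single sublines, the 15 all in subline 23, and 1 pathway probe set among sublines on array A. Subline 23 on array A is among the arrays left out of the main fits. The share of all probe sets called is given above for the weighted fit among sublines on array A alone. Without such shares these counts are no result about the members or the pathway. When a replicate number was left out, single-subline calls on array B ran from 0 to 2, pathway calls on array B from 0 to 1, the range of subline mean scores from 0.895 to 1.45, and positive Irf7 slopes called between 33 and 36 (array A) and between 0 and 4 (array B, 0 of them without replicate 3). The Cgas difference of subline 23 by its second probe set was -0.0691 without replicate 1, the reverse sign, and 0.724 without replicate 3. The replicate numbers do not pair tumours: same-numbered tumours had a median residual correlation of 0.000675 on array A and 0.0156 on array B. With the replicate number as a block, the members called among sublines were 0 and 1, the score range was 1.03, Irf7 slopes called were 39 and 5, and Ifngr1 in subline 22 no longer passed (adjusted p 0.0537). The fits among sublines with marker scores as covariates were not run on array B, where most of those markers are not measured. The regression on Irf7 with T cell and macrophage scores as covariates was run on both arrays, with the scores taken from array A. Precision is limited by signal over background, since Cxcl9 on array B and the lowest Gbp6 values lay at the level of the absent controls.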
